A study of Mus musculus with 31 samples.

Results

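The 6 libraries described here are the control libraries of the H19DMD model: 3 of mesenchymal and 3 of non-mesenchymal cells, taken from mouse pancreas at postnatal day 2. They are 6 of the 31 samples of the series, of which 21 have values here, and were chosen by their labels alone. The labels name 1 more control sample for each fraction, which was not analysed here. All came from C57BL/6 mice of the genotype H19DMD+/+; Nkx3.2+/Cre, so both fractions carry the Cre allele and neither carries a deletion. Pancreata were taken apart with trypsin-EDTA and separated by fluorescence-activated sorting, with YFP-positive cells taken as mesenchymal and YFP-negative cells as non-mesenchymal. What counts as mesenchymal is therefore set by where the Nkx3.2-Cre driver has been active, and everything else in the gland that survived dissociation falls in the other fraction. The RNA was amplified before the libraries were made, and expression is given in FPKM, a fragment count divided by the length of the transcript and the size of the library. As a second set of libraries, 4 mesenchymal and 4 non-mesenchymal libraries of H19DMDfl/+; Nkx3.2+/Cre mutants were compared in the same way. The labels do not say whether a library is 1 animal or a pool, so the p-values measure the spread between these samples, which may be technical.

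The pancreatic mesenchyme is the connective tissue layer in which the gland's epithelium grows, branches and forms acinar, ductal and endocrine cells. It lays down the collagen-rich matrix and secretes growth factors to which the epithelium responds, and around birth it also holds smooth muscle cells, pericytes and the mesothelial lining of the organ. Epithelium, blood cells, nerve and Schwann cells arise from other lineages.

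The defining markers matched the labels of both fractions. Col1a1, a chain of type I collagen, was at 865, 816 and 968 FPKM in mesenchymal libraries 1, 2 and 3 and at 13.3, 6.18 and 5.32 FPKM in non-mesenchymal libraries 1, 2 and 3. Cpa1, the acinar carboxypeptidase A1, was at 12.7, 30.8 and 28.7 FPKM in the mesenchymal and 821, 1181 and 1983 FPKM in the non-mesenchymal libraries. Cd52, a leukocyte surface glycoprotein, was listed at 0 in mesenchymal libraries 1 and 3 and at 0.974 FPKM in library 2, against 74.3, 104 and 76.5 FPKM in the non-mesenchymal libraries. Below, wherever values are set against each other, those of mesenchymal libraries 1, 2 and 3 come first and those of non-mesenchymal libraries 1, 2 and 3 follow. The libraries of the fractions did not overlap for any of these, nor for Col3a1, Postn and Ins2 below. Nkx3-2 itself, the gene whose promoter drives Cre, was at 0.433, 0.886 and 0 FPKM in the mesenchymal libraries and listed at 0 in all 3 non-mesenchymal libraries, too low to be tested.

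Pearson's r of log2(FPKM + 1) across protein-coding genes was 0.923 to 0.933 between libraries of a fraction and 0.608 to 0.667 between fractions. Each library had 12105 to 12913 protein-coding genes at 1 FPKM or more. The 3 features with the highest FPKM, which include short RNAs, took 50.2 to 58.2% of a library's FPKM, and protein-coding genes together took 15.4 to 20.8%. Read counts are not given, so the depth is unknown.

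Of 13245 protein-coding genes tested, 3337 (25.2%) differed between the fractions at an adjusted p under 0.05 in limma, 1761 (13.3%) higher in the mesenchymal and 1576 (11.9%) lower. Over all 16732 features tested, non-coding ones included, 3785 (22.6%) were called. Genes past this threshold are named as called here, and a difference is mesenchymal minus non-mesenchymal in log2(FPKM + 1), so that differences of weakly expressed genes come out too small. The fractions stood far apart at both ends: 168 called genes were higher and 171 lower by a log2 difference of at least 4, and 19 were higher and 28 lower by at least 6. The median difference over all protein-coding genes tested was 0.04. Libraries of the fractions did not overlap for 5814 genes (43.9%), and the smallest p an exact permutation test of 3 against 3 can give is 0.1. Scaling each library by the median of its ratios moved the median of all features from 0.08 to -0.03. It gave 46.5% instead of 52.8% of the calls as higher. The shift of the median is small against the largest differences below, but not against those near 0. The uncalled differences of Col18a1, Meis2 and Cpe changed sign with this scaling. In whole-fraction RNA, fewer cells of a type and less RNA per cell cannot be told apart.

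Among called protein-coding genes with a mean log2(FPKM + 1) of at least 5 in the higher fraction, the one furthest above the non-mesenchymal level was Agtr2 (ENSMUSG00000068122, chrX:21484544-21489164), the type 2 angiotensin receptor. It was at 434, 632 and 319.8 FPKM in the mesenchymal libraries and at 0.062, 1.41 and 0.47 FPKM in the non-mesenchymal ones, a 715-fold difference of means and a log2 difference of 8.16 (SE 0.39, adjusted p = 0.000121). Non-coding features, among them miRNA and snoRNA genes and H19, were not ranked here, and some had larger differences. The other 14 of the 15 largest differences among the protein-coding genes were Col3a1, Acta2, Col1a1, Col1a2, Tpm2, Mfap5, Dcn, Postn, C1s, Col6a2, Dpt, Igf2, Lum and Myh11. By what they encode, 9 are collagens or other matrix proteins, 3 belong to the contractile apparatus (Acta2, Tpm2 and Myh11), C1s is a complement protease and Igf2 a growth factor. Igf2 was the most abundant of them and the steadiest, at 3876, 4024 and 3648 FPKM against 53.2, 45.2 and 46.2 FPKM. Its log2 difference was 6.29 (SE 0.16, adjusted p = 3.49e-05), and it made up 1.15% of all protein-coding FPKM in the mesenchymal fraction. All 15 were called higher in the mutants too, with differences of 4.90 to 7.29.

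**Figure D1:**
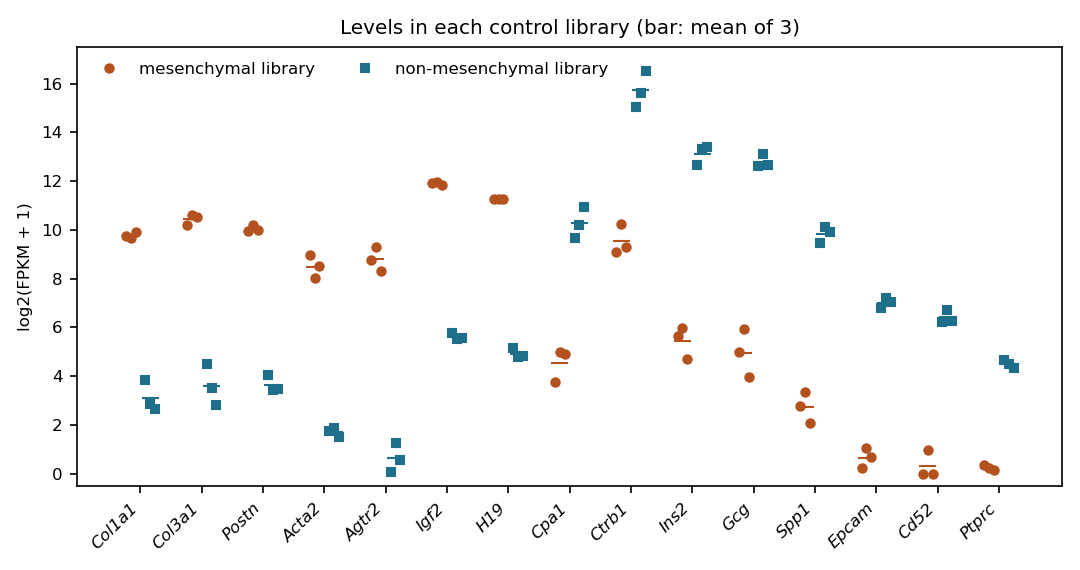
Levels of 15 genes in each of the 6 control libraries, on a log2(FPKM + 1) axis, with mesenchymal libraries as circles, non-mesenchymal libraries as squares and a bar at the mean of 3. The libraries of the fractions do not overlap for any gene shown, and Agtr2 has the widest gap, with a log2 difference of 8.16.

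Matrix genes formed the broadest block. Of 16 collagens tested, 14 were called higher, with a median difference of 5.51. Col3a1 (ENSMUSG00000026043, chr1:45311538-45349706), the main chain of type III collagen, was at 1185, 1540 and 1477 FPKM against 21.7, 10.3 and 6.12 FPKM, 110.4-fold apart. The fibrillar chains Col1a2, Col5a1 and Col5a2 and the type VI chains Col6a1, Col6a2 and Col6a3 were 91.8-fold to 117-fold higher. The basement membrane chains stood closer together. Col4a1 was at 78.7, 88.9 and 83.4 FPKM against 9.69, 12.8 and 13.4 FPKM, 7-fold apart, and Col4a2 was 6.84-fold higher. Of the 2 collagens not called, Col8a1 had a difference of 1.33 (adjusted p = 0.0566, and 0.0463 without mesenchymal library 1) and Col18a1, a basement membrane collagen made by epithelia as well, lay at 9.46, 7.44 and 6.49 against 5.3, 7.91 and 9.08 FPKM (difference 0.075, adjusted p = 0.869).

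Among 27 glycoproteins, proteoglycans and matrix-modifying genes, 26 were called higher, with a median of 4.48. Sparc, a collagen-binding protein, had the highest level of them, at 2180, 2489 and 2270 FPKM against 143, 161 and 171 FPKM. The non-mesenchymal level was also the highest of the list, so its ratio was only 14.6-fold. Postn, the matrix protein periostin, was at 979, 1191 and 1017 FPKM against 15.3, 9.85 and 10.1 FPKM, a log2 difference of 6.41 (SE 0.22, adjusted p = 7.92e-05). Dcn, the small proteoglycan decorin, was at 1295, 1342 and 727 FPKM against 23.5, 11.5 and 5.42 FPKM. The microfibril genes Fbn1, Fbn2, Mfap4 and Mfap5 were 73.9-fold to 126-fold higher, Mfap2, of the same microfibrils, was 23.8-fold higher, and elastin (Eln) was 28.6-fold higher. Timp3, an inhibitor of matrix proteases, was the 1 member not called, at 46.7, 77.8 and 68 against 24.1, 26.9 and 49.6 FPKM (difference 0.96, adjusted p = 0.103, and 0.0377 without non-mesenchymal library 3).

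The enzymes and chaperones that process collagen differed less, with 14 of 16 called higher and a median of 2.44. Pcolce, which enhances removal of the procollagen C-terminal propeptide, was at 199, 192 and 154 FPKM against 3.21, 5.84 and 6.78 FPKM. Serpinh1, the collagen chaperone HSP47, was at 106, 136 and 131 FPKM against 10.1, 14.8 and 16.3 FPKM, 9.06-fold apart. P4hb, which serves as a subunit of prolyl 4-hydroxylase and as a general disulfide isomerase, was at 349, 359 and 292 against 173, 265 and 288 FPKM, and its difference of 0.49 was not called (adjusted p = 0.215).

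Of 30 mesenchymal transcription factors, 26 passed the filter of a mean of 1 FPKM and 23 of these were called higher, with a median of 2.60 (2.44 over all 30). Prrx1, a homeobox factor of limb and organ mesenchyme, was at 58.2, 71.7 and 42.9 FPKM against 0.51, 0.372 and 0.286 FPKM, 148-fold apart. Osr1 and Tcf21, both factors of visceral mesenchyme, had differences of 5.21 and 4.08. Gli1, a hedgehog target, was at 19.1, 14.4 and 14 FPKM against 0.134, 0.31 and 0.189 FPKM, and Gli2 and Gli3, factors of the same pathway, had differences of 3.46 and 3.58. Barx1, a factor of foregut mesenchyme, was at 10.7, 3.31 and 9.62 FPKM and listed at 0 in all 3 non-mesenchymal libraries. Nkx2-3, which acts in spleen and gut mesenchyme, was at 3.93, 5.87 and 4.79 FPKM against 0, 0.125 and 0 FPKM.

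All 6 Hox genes of the list were called higher, and those with the firmest calls were Hoxb4 (difference 2.31, adjusted p = 0.00167), Hoxc4 (difference 2.39, adjusted p = 0.00569) and Hoxa5 (difference 1.82, adjusted p = 0.00656). The calls of Hoxa4, Hoxb5 and Hoxb6 were lost without single libraries, with adjusted p of 0.052 to 0.0639 for Hoxa4 (mesenchymal library 1, non-mesenchymal libraries 2 and 3), 0.0536 and 0.0564 for Hoxb5 (library 3 of either fraction) and 0.108 to 0.116 for Hoxb6 (mesenchymal libraries 1 and 3, non-mesenchymal libraries 2 and 3). Zeb1 and Zeb2, repressors of epithelial genes, had the highest mesenchymal levels of the list but were only 6.84-fold and 6.62-fold apart. Meis2, a homeobox cofactor, was at 89, 75.4 and 97.5 FPKM in the mesenchymal and 85.2, 59.5 and 124 FPKM in the non-mesenchymal libraries, with overlapping values and no call.

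Surface and cytoskeletal genes gave 10 of 11 called higher. Pdgfra, the platelet-derived growth factor receptor used to recognise fibroblasts, was at 43.1, 63.8 and 57.6 FPKM against 0.51, 0.209 and 0.0346 FPKM, 218-fold apart. Vim, the intermediate filament vimentin, was only 6.11-fold apart, at 812, 847 and 745 FPKM against 103, 156 and 134 FPKM. Vimentin is also made by leukocytes and endothelium.

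Markers of several cell types were higher in the mesenchymal fraction. Of 19 smooth muscle and pericyte genes listed, 18 were tested and all 18 were called higher, with a median of 4.20 (3.83 over all 19). Myh11, the smooth muscle myosin heavy chain, was at 119.7, 48.2 and 173 FPKM against 0.511, 0.355 and 0.306 FPKM, and Actg2, the gamma smooth muscle actin, at 244, 91 and 263 FPKM against 2.04, 3.34 and 1.33 FPKM. In both, mesenchymal library 2 was the lowest of the 3. The same library was lowest for Acta2, at 501, 257 and 362 FPKM, and by little for the pericyte gene Abcc9, at 50.8, 47.3 and 50.7 FPKM against 0.478, 0.622 and 0.239 FPKM. Rgs5, also of pericytes, was at 89.7, 120.5 and 148 FPKM against 9.77, 12.1 and 6.38 FPKM, and library 2 was not its lowest. The mean log2(FPKM + 1) of the whole list was 5.04, 4.58 and 5.47 in mesenchymal libraries 1, 2 and 3. Without 1 library 16 or 17 of the 18 calls were made.

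All 7 mesothelial genes were called higher, with a median of 3.69, and they were highest in mesenchymal library 1. Wt1, the Wilms tumour transcription factor, was at 76.5, 49 and 45.7 FPKM against 1.92, 0 and 0.464 FPKM. Upk3b, a uroplakin of the mesothelial surface, was at 105, 43.2 and 37.5 FPKM against 2.51, 0.69 and 0.549 FPKM, and Msln, the surface protein mesothelin, at 37.9, 14.9 and 17.7 FPKM against 1.63, 0.689 and 1.55 FPKM. The list averaged 5.34, 4.38 and 4.19 in mesenchymal libraries 1, 2 and 3, and all 7 genes were called whichever library was left out. Among epithelial genes, Krt19, a keratin of ducts and mesothelium, was also highest of the mesenchymal libraries in library 1, at 67.1, 20.5 and 45 FPKM, and its values overlapped those of the non-mesenchymal libraries, at 29.8, 50.6 and 50.6 FPKM.

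Of 19 endothelial genes tested, 7 were called higher in the mesenchymal fraction (beside 13.3% of all protein-coding genes). The median over the 19 was 1.09, with a range of 0.16 to 3.22. Libraries did not overlap for 14 (beside 43.9% of all protein-coding genes). The count of endothelial calls was 1 without mesenchymal library 1, 5 without mesenchymal library 2, 2 without mesenchymal library 3, 2 without non-mesenchymal library 1, 3 without non-mesenchymal library 2 and 7 without non-mesenchymal library 3. Their summed FPKM in the mesenchymal libraries was 281 to 308% of the non-mesenchymal mean. Eng, the TGF-beta co-receptor endoglin, was at 15.4, 23.3 and 17 FPKM against 1.69, 1.99 and 5.57 FPKM, and it was the 1 endothelial gene called whichever library was left out. Tek, the angiopoietin receptor, was at 32.1, 37.5 and 21.3 FPKM against 0.269, 1.65 and 9.52 FPKM, and its call was lost when any library but non-mesenchymal library 3 was left out, with adjusted p of 0.0589 to 0.102. Pecam1, at 16.4, 18.6 and 19.1 against 9.72, 17.8 and 7.84 FPKM, and Cdh5, at 8.04, 11.3 and 12.8 against 2.91, 5.59 and 10.7 FPKM, both junction proteins that define endothelium, overlapped between fractions and were not called. Without non-mesenchymal library 2 Pecam1 was called (adjusted p = 0.0372). The list averaged 2.94, 2.94 and 2.99 in the mesenchymal and 1.25, 1.79 and 2.25 in the non-mesenchymal libraries, so non-mesenchymal library 3 came closest.

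**Figure D2:**
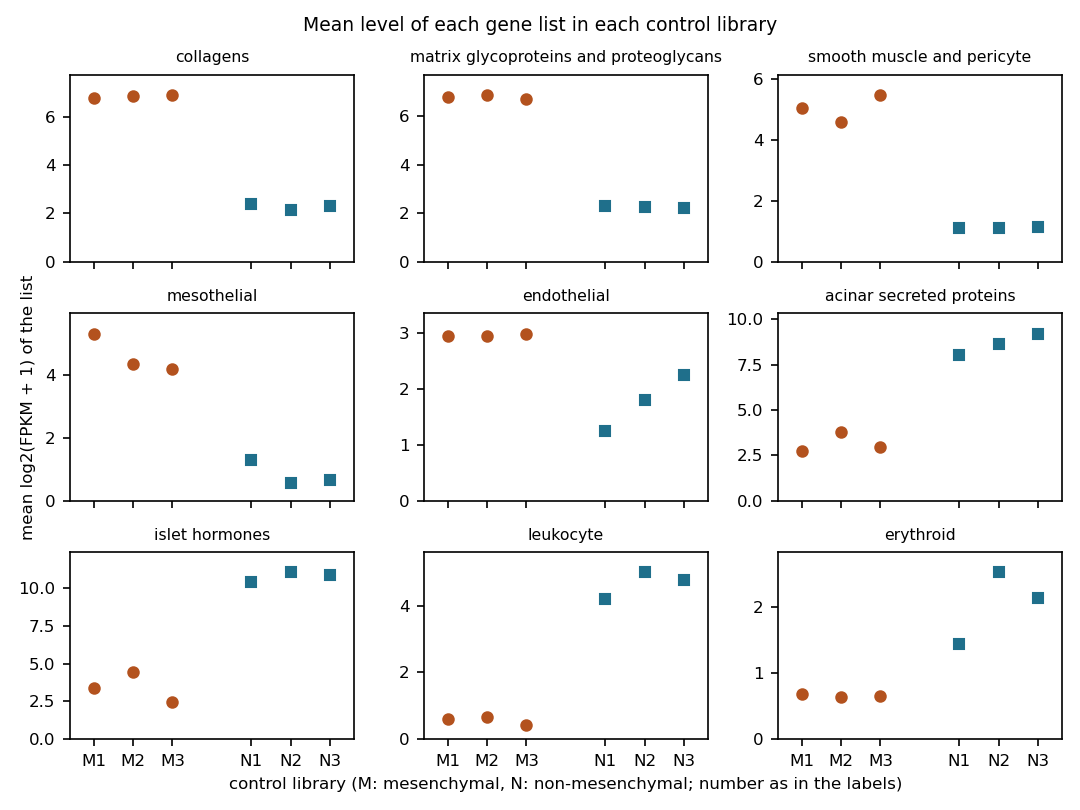
Mean log2(FPKM + 1) of 9 gene lists in each control library, with mesenchymal libraries M1 to M3 as circles and non-mesenchymal libraries N1 to N3 as squares. Mesothelial genes peak in M1 at 5.34, smooth muscle and pericyte genes are lowest in M2 at 4.58, and in the endothelial list N3 reaches 2.25 against 2.94 to 2.99 in the mesenchymal libraries.

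Of 55 secreted signalling ligands listed, 46 were tested, and 28 were called higher and 7 lower in the mesenchymal fraction (beside 13.3% and 11.9% of all protein-coding genes), with a median of 1.6 (1.14 over all 55). With 1 library left out, 23 to 25 ligands were called higher and 4 to 6 lower, the 4 without non-mesenchymal library 2. Fgf7 and Fgf10, which signal to epithelial Fgfr2, were both called higher: Fgf10 was at 10.8, 11.4 and 6.38 FPKM against 0.0482, 0.0528 and 0 FPKM, and Fgf7 was at 17.6, 15.3 and 15.1 FPKM and listed at 0 in all 3 non-mesenchymal libraries. Fgfr2, a receptor of epithelia, was lower, at 29.4, 15.4 and 45.1 FPKM in the mesenchymal and 142, 135 and 169 FPKM in the non-mesenchymal libraries (difference -2.38, adjusted p = 0.00752). Fgfr3 and Fgfr4 were also lower, by differences of -2.57 and -3.10, whereas Fgfr1 was 3.37-fold higher.

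In the IGF family both ligands were higher in the mesenchymal fraction and the signalling receptors were not called. Igf1 was at 348, 288 and 189 FPKM against 35.1, 44.4 and 74.5 FPKM, 5.35-fold apart. Igf1r, the receptor through which both ligands signal, was at 28.4, 23.2 and 30.7 against 14.1, 15.3 and 23.6 FPKM (difference 0.63, 95% interval 0.027 to 1.2, adjusted p = 0.131), and Insr, the insulin receptor, was at 16.3, 13.3 and 15.3 against 11.7, 11.7 and 15.3 FPKM (difference 0.20, 95% interval -0.25 to 0.66, adjusted p = 0.487). Igf2r, which clears IGF2 from the cell surface, was 3.96-fold higher, at 199, 178 and 236 FPKM against 56.9, 31.3 and 66.3 FPKM. The binding proteins Igfbp3, Igfbp4, Igfbp5, Igfbp6 and Igfbp7 were called higher, with Igfbp4 at 139.8, 184 and 139 FPKM against 4.55, 5.76 and 7.04 FPKM. Igfbp2 was called higher too (adjusted p = 0.028). Its call was lost when any library but mesenchymal library 2 was left out, with adjusted p of 0.0627 to 0.0905.

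Ligands and receptors of the epidermal growth factor family were called on both sides. The ligands Areg and Hbegf were lower in the mesenchymal fraction, with Areg listed at 0 in all 3 mesenchymal libraries and at 6.88, 10.4 and 6.07 FPKM in the others. Tgfa was lower too (difference -1.74, adjusted p = 0.0128, and 0.0501 without non-mesenchymal library 2). The neuregulin gene Nrg1 was higher (difference 1.14, adjusted p = 0.0356), a call lost with any of the 6 libraries left out, at adjusted p of 0.0581 to 0.0888 or, without mesenchymal library 2, below the filter. Egfr, the receptor of Areg, Hbegf and Tgfa, was higher, at 25.5, 27.3 and 26.4 FPKM against 2.43, 1.27 and 1.46 FPKM, while Erbb3 and Erbb4, the neuregulin receptors, were lower by differences of -2.76 and -2.03. Csf1, the macrophage growth factor, was 9.29-fold higher and its receptor Csf1r lower by a difference of -2.75. Hgf was higher by 2.02, and its receptor Met had a difference of -1.19 that was not called (adjusted p = 0.0768).

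Both Slit ligands, secreted guidance proteins, were well above the non-mesenchymal level. Slit2 was at 252, 263 and 313 FPKM against 4.24, 7.93 and 7.4 FPKM, 42.3-fold apart, and Slit3 was 14.3-fold higher. Their receptors Robo1 and Robo2 were called higher as well, by 1.29 and 1.82. Dll1, a Notch ligand, had the largest difference on the non-mesenchymal side among the 46 ligands tested, at 1.08, 0 and 0 FPKM against 17.9, 10.9 and 19.8 FPKM (difference -3.71, adjusted p = 0.00155), but it was not called in the mutants (difference -1.44, adjusted p = 0.0906). Over all 47 receptors tested, 22 were called higher and 8 lower (beside 13.3% and 11.9% of all protein-coding genes), with a median of 0.62. Of the 35 ligand calls, 25 were made whichever library was left out, and of the 30 receptor calls, 27 were.

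**Figure D3:**
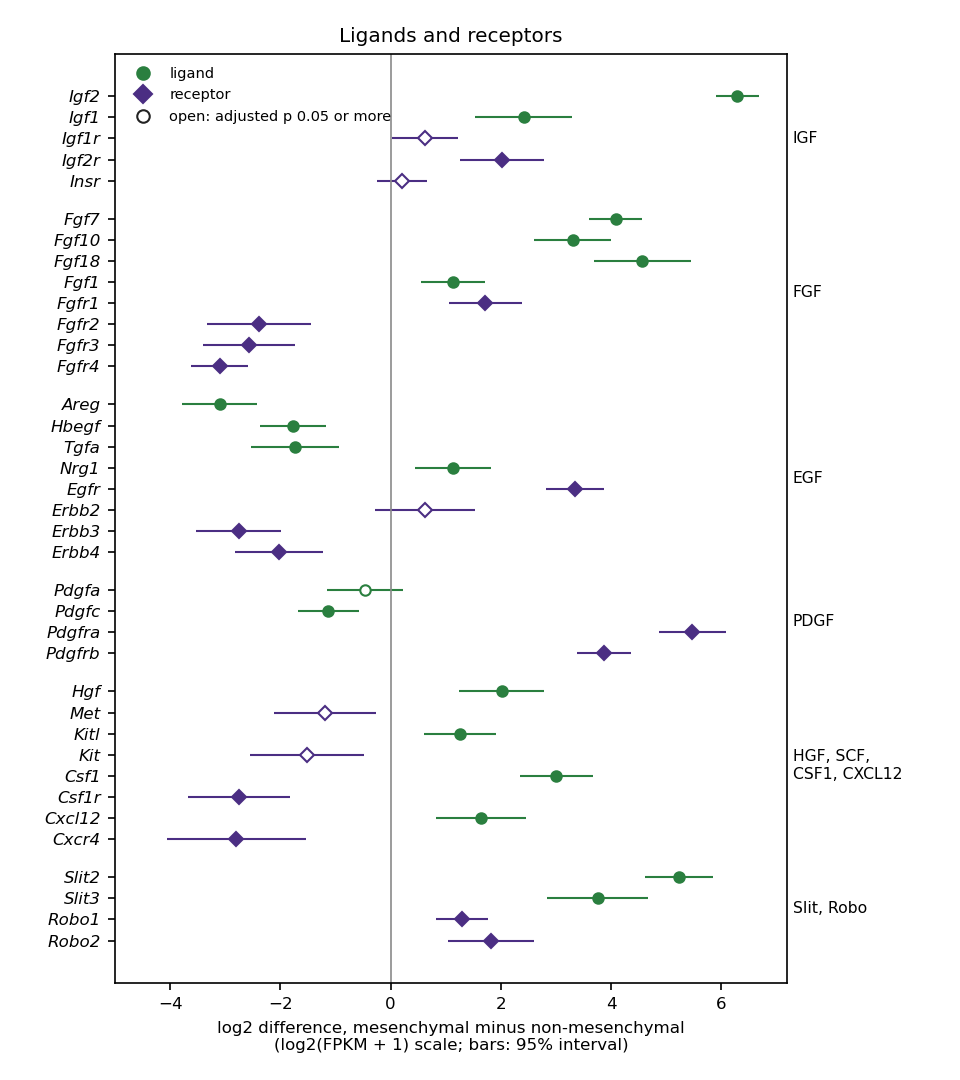
Difference between the fractions, on the log2(FPKM + 1) scale with its 95% interval, for ligands (circles) and receptors (diamonds) in 6 groups, with open symbols where the adjusted p is 0.05 or more. Fgf7, Fgf10 and Fgf18 lie on the mesenchymal side and Fgfr2, Fgfr3 and Fgfr4 on the other, and the EGF family shows Egfr at 3.35 against Areg at -3.10.

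Of 29 secreted antagonists listed, 24 were tested and 21 of these called higher, with a median of 2.88 over the 24 and of 2.05 over all 29. Fstl1, a follistatin-like protein, had the highest level of these, at 530.2, 671 and 546 FPKM against 31.9, 42.9 and 46.5 FPKM. The Wnt antagonists Sfrp1, at 65.1, 72.4 and 74.5 FPKM against 4.47, 3.58 and 8.03 FPKM, and Dkk2, at 12.6, 14.1 and 19.4 FPKM against 0.294, 0.0554 and 0.0581 FPKM, and the BMP antagonist Grem1, at 12.3, 8.77 and 11.9 FPKM against 0.153, 0.363 and 0.206 FPKM, were all called. Frzb, another Wnt antagonist, was the 1 called lower, at 0, 0.112 and 0.111 FPKM against 13.3, 8.1 and 4.82 FPKM. Of 14 retinoic acid genes tested, 6 were higher and 1 lower (beside 13.3% and 11.9% of all protein-coding genes). Aldh1a2, the enzyme that makes retinoic acid in embryonic mesoderm, was at 51.3, 27.5 and 26.7 FPKM against 2.5, 1.77 and 0.238 FPKM, and Rbp4, the plasma retinol carrier, was at 8.84, 0 and 2.05 FPKM against 74.9, 103 and 92.7 FPKM.

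Imprinted genes, which are expressed from 1 parental allele, were largely higher: 15 of 20 called higher and 1 lower, with a median of 2.24. The 1 lower was Zdbf2, at 4.39, 4.59 and 4.28 FPKM against 10.6, 10 and 6.62 FPKM (difference -0.87, adjusted p = 0.0402). Its call was lost when any library but non-mesenchymal library 3 was left out (adjusted p of 0.0937 to 0.127), and it was not called in mutants (difference -0.54, adjusted p = 0.131). Igf2, Igf2r and Dlk1 are also counted among the ligands and receptors. H19 (ENSMUSG00000000031, chr7:142575529-142578143), the non-coding RNA next to Igf2, was at 2437, 2446 and 2454 FPKM against 34.8, 26.2 and 27 FPKM, 83.4-fold apart, close to the 79.8-fold of Igf2 (ENSMUSG00000048583, chr7:142650766-142666816). Plagl1, a transcription factor, was at 510.4, 503 and 385 FPKM against 9.07, 11.7 and 15.5 FPKM, Cdkn1c, an inhibitor of cell division, at 205, 312 and 276 FPKM against 9.37, 7.52 and 5.57 FPKM, and Mest at 528, 732 and 452 FPKM against 11, 19.8 and 35.2 FPKM. Dlk1, a transmembrane protein of the Notch ligand family, was 31-fold higher. Peg3 and Grb10 had smaller differences, 1.32 and 1.01, and Peg10, at 72.4, 99 and 81.6 against 58, 66.4 and 65.8 FPKM, was not called in controls (adjusted p = 0.176) but was in mutants (difference 1.62, adjusted p = 0.000408), a contrast between genotypes that did not pass the test of the difference itself described below. Whether fragments were assigned by strand is not stated, so Igf2 and its antisense transcript Igf2as cannot be told apart with certainty.

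Among the protein-coding genes lower in the mesenchymal fraction, secreted acinar proteins were the most abundant. All 28 tested of 30 were called lower, with differences of -6.83 to -4.43 and a median of -5.89, and all 28 were called whichever library was left out. Ctrb1 (ENSMUSG00000031957, chr8:111686519-111691010), the digestive protease chymotrypsinogen B, was at 33864, 49793 and 93011 FPKM in the non-mesenchymal libraries, 13% of their protein-coding FPKM, and at 552, 1223 and 624 FPKM in the mesenchymal ones. Clps, the lipase cofactor colipase, was at 65.4, 128 and 61.4 FPKM against 4266, 6144 and 10339 FPKM, and Reg1, a secreted lectin of acinar cells, was at 12.4, 33.2 and 3.73 FPKM against 862, 1609 and 2292 FPKM. Cpa1 was 55.1-fold lower in the mesenchymal fraction (difference -5.73, SE 0.46, adjusted p = 0.000571). Genes of the trypsin and chymotrypsin families, such as Prss1, Prss2, Prss3, Try4 and Try5, are near-identical copies, and how fragments were split among them is uncertain.

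Acinar levels also varied between libraries of a fraction. The mean log2(FPKM + 1) of the list was 8.02, 8.63 and 9.22 in non-mesenchymal libraries 1, 2 and 3 and 2.75, 3.77 and 2.96 in mesenchymal libraries 1, 2 and 3. Summed over the list, the mesenchymal libraries held 0.909, 2.13 and 1.06% of the mean non-mesenchymal FPKM. Mesenchymal library 2 was the highest for islet hormones as well, at 0.921% against 0.506% in library 1 and 0.225% in library 3. In the other direction, the collagen sum in the non-mesenchymal libraries was 2.15, 1.67 and 2.01% of its mesenchymal mean. The part of any carried-over cells or RNA in these low values was not tested.

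Promoters of the acinar genes are shown because the 28 genes moved together. Of the 30 listed genes, 24 matched a promoter in the RefSeq table (GRCm38.p6), and the 250 bases before the start site were searched on both strands. The TATA-box letters TATAAA were present in 10 of the 24 genes (41.7%), against 14.3% of the 27018 genes of the table. CACCTG, the E-box part of the site of the acinar factor PTF1, was present in 13 (54.2% against 19.4%), and TTTCCC, its other part, in 8 (33.3% against 24.4%). The 3 motifs were counted separately. Kept to the last 40 bases on the coding strand, a window chosen after the data were seen, TATAAA was in 10 genes (41.7%), against 2.78% of the table. Of these 10 genes, 6 belong to families of close copies, the trypsin genes Prss1, Prss2, Prss3 and Try4 and the amylase genes Amy2a5 and Amy2b, so the 10 are not independent and neither share rests on 10 separate genes. The printed runs are the 60 bases before the start site on the coding strand, with TATAAA in capitals.
Prss1 (chr6:41458870-41458929, plus strand): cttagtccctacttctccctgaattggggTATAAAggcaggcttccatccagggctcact
Try4 (chr6:41302212-41302271, plus strand): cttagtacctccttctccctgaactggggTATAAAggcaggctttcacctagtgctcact
Reg1 (chr6:78425923-78425982, plus strand): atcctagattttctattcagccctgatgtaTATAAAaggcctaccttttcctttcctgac
Cela1 (chr15:100687921-100687980, minus strand): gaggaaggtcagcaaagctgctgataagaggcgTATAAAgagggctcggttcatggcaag
Gp2 (chr7:119459273-119459332, minus strand): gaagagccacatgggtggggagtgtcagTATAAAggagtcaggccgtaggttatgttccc
Cpa1 (chr6:30639158-30639217, plus strand): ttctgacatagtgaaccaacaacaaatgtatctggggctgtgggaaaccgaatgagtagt
Ctrb1 (chr8:111691011-111691070, minus strand): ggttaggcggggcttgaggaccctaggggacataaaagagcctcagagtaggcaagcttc
Prss1 and Try4 belong to the trypsin family of close copies and are not independent examples. Cpa1 and Ctrb1, both called lower as well, hold no TATAAA in these 60 bases. On the mesenchymal side, the runs before Col3a1 and Acta2 hold none either, whereas Postn, with 2 start sites in the table, holds TATAAA before the second.
Col3a1 (chr1:45311478-45311537, plus strand): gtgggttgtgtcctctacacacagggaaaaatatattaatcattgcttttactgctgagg
Acta2 (chr19:34255374-34255433, minus strand): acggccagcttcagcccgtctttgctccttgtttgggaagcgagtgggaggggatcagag
Postn, second start site (chr3:54361047-54361106, plus strand): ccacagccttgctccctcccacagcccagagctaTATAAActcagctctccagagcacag
Of the 8 islet hormone genes 7 matched, and 2 of these (28.6%) hold TATAAA and 2 (28.6%) CACCTG in the 250 bases. Among the 1181 matched genes of the 1576 called lower, CACCTG was in 31.8% and TATAAA in 11.8%. Among the 12 matched of 16 collagens, TTTCCC was in 4 (33.3%), the same share as in the acinar list. TATAAA was in 1 of these collagens (8.33%) and CACCTG in 2 (16.7%). Among the 10383 matched protein-coding genes tested, TATAAA was in 8.32%, CACCTG in 18.7% and TTTCCC in 26.9%. Under 80% of the genes matched among those called lower, the collagens and all those tested, so a comparison with these sets is void.

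Islet hormones led the non-mesenchymal side. The 15 largest differences there, of protein-coding genes chosen by the same rule, were Gcg, Ins1, Ins2, Sst, Iapp, Ppy, Spp1, Pyy, Chgb, Ptpn6, Reg1, Ttr, Ces1d, Rnase1 and Spink3, of which 14 were called in the mutants too. All 8 listed hormones were called lower in the mesenchymal fraction, with differences of -7.84 to -6.41 and a median of -7.51. Gcg (ENSMUSG00000000394, chr2:62474530-62483650), which encodes glucagon of alpha cells, was at 31.1, 59.7 and 14.5 FPKM against 6206, 8888 and 6556 FPKM, 206-fold apart (difference -7.84, SE 0.51, adjusted p = 0.000292). Ins2 (ENSMUSG00000000215, chr7:142678656-142743381), an insulin gene of beta cells, was at 49.1, 61.9 and 24.9 FPKM against 6416, 10095 and 10819 FPKM, 201-fold apart. Ins1, at 33, 70.3 and 8.63 FPKM against 5231, 7424 and 6775 FPKM, is a close copy of Ins2, and how fragments were split between them is uncertain. Sst of delta cells was at 5.48, 11.8 and 3.14 FPKM against 810.1, 1874 and 1738 FPKM, and Ghrl, the ghrelin gene, at 1.85, 4.64 and 4.08 FPKM against 257, 454 and 422 FPKM. Mesenchymal library 3 had the lowest and library 2 the highest value of Gcg, Ins2, Ins1, Pyy and Sst among the 3 mesenchymal libraries.

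Of 18 islet secretory and sensing genes, 17 were called lower, with a median of -4.11. Chgb, the granule protein chromogranin B, was at 0.55, 2.57 and 0.728 FPKM against 266, 217 and 277 FPKM. Pcsk2, the convertase that processes proglucagon and proinsulin, was at 1.03, 1.54 and 0.701 FPKM against 59.7, 62.2 and 60.9 FPKM, nearly level over the 3 non-mesenchymal libraries. Cpe, carboxypeptidase E, was the exception, at 132, 156 and 174 FPKM in the mesenchymal and 140.1, 174 and 120.1 FPKM in the non-mesenchymal libraries (difference 0.095, adjusted p = 0.791), with overlapping values. Of 13 islet transcription factors tested, 12 were called lower, among them Nkx2-2 (difference -5), Pax6 (difference -4.35) and Nkx6-1 (difference -4.25). Neurog3, the transient factor of endocrine progenitors, was at 2.05, 2.86 and 6.12 FPKM in the non-mesenchymal libraries and listed at 0 in all 3 mesenchymal libraries. It fell below the filter without non-mesenchymal library 3, so no call was made there. Mafa, a factor of mature beta cells, was listed at 0 in all 6 libraries.

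Pancreatic epithelial transcription factors gave 12 of 14 tested lower, with a median of -3.35 (-3.06 over all 15 listed). Sox9, a ductal and progenitor factor, was at 1.43, 0.516 and 2.13 FPKM against 39.4, 64.5 and 50.8 FPKM, and Pdx1, the factor of the pancreatic epithelium and beta cells, at 0.245, 0.254 and 0.0846 FPKM against 11.1, 16.9 and 14.3 FPKM. Ptf1a and Rbpjl, subunits of the acinar factor PTF1, were lower by differences of -1.97 and -4.01. Gata4, at 3.67, 1.81 and 0.326 against 5.46, 7.69 and 13.3 FPKM, was not called (difference -1.84, adjusted p = 0.0598, and 0.042 without mesenchymal library 1).

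Epithelial junction and identity genes were called lower without exception, 20 of 20 tested, with a median of -3.72. Without 1 library 17 to 20 of them were called. Epcam, the epithelial adhesion molecule, was at 0.185, 1.06 and 0.599 FPKM against 109.6, 147 and 129 FPKM, 209-fold apart. Cdh1, E-cadherin, was at 0.802, 1.27 and 0.393 FPKM against 90.3, 122 and 119.5 FPKM. Cldn7, a tight junction claudin, was at 25.7, 47.6 and 39.4 FPKM in the non-mesenchymal libraries and listed at 0 in all 3 mesenchymal libraries. Esrp1, an epithelial splicing regulator, was 207-fold lower.

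The ductal list was uneven in controls, with 7 of 12 called lower and a median of -2.13. In the mutants 11 of 12 were called lower (beside 18% of all protein-coding genes there), with a median of -2.8. Spp1, the secreted protein osteopontin, which ducts make, was at 5.94, 9.15 and 3.26 FPKM against 706, 1114 and 970.3 FPKM, 152-fold apart. Krt18, a keratin shared with acinar cells, was at 5.38, 5.27 and 1.6 FPKM against 92.4, 172 and 150.5 FPKM. Cftr, the chloride channel, was at 0.362, 0.906 and 0.302 against 2.18, 0.861 and 2.9 FPKM and was not called (difference -0.92, adjusted p = 0.156).

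Of 27 leukocyte genes, 26 were called lower in the mesenchymal fraction, with a median of -3.91. Lymphoid and myeloid genes were both present. Cd3e, part of the T-cell receptor complex, was at 36.6, 22.1 and 31 FPKM in the non-mesenchymal libraries and Ms4a1, the B-cell antigen CD20, at 13.3, 15.5 and 8.41 FPKM, and both were listed at 0 in all 3 mesenchymal libraries. Ptprc, the pan-leukocyte phosphatase CD45, was at 0.271, 0.159 and 0.0949 FPKM against 24.1, 21.8 and 19 FPKM. S100a8 and S100a9, calcium-binding proteins of neutrophils, had differences of -5.72 and -5.71. In each, non-mesenchymal library 1 was the lowest of the 3: S100a9 was at 37.9, 119 and 107 FPKM there. Cd68, a lysosomal protein of macrophages also found in other cells, was the 1 leukocyte gene not called, at 22.8, 12.9 and 13.9 against 16.1, 44.7 and 34.4 FPKM (difference -0.83, adjusted p = 0.228). Ptpn6, a phosphatase of blood cells that was not on this list, had one of the largest folds of all named genes, 518, at 0.35, 0.457 and 0.187 FPKM against 252, 85.2 and 177 FPKM. It was not called in the mutants (difference -3.51, adjusted p = 0.138).

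Of 18 red cell genes listed, 15 had values and 8 were tested. Of these 8, 4 were called lower in the mesenchymal fraction (beside 11.9% of all protein-coding genes). The median was -2.55 over the 8 tested and -0.722 over the whole list. Hbb-b1, an adult beta globin, was at 6.04, 7.07 and 5.74 FPKM against 90.9, 274 and 77.3 FPKM and its neighbour Hbb-b2 at 0.605, 0 and 0 FPKM against 9.17, 68.7 and 19 FPKM. Non-mesenchymal library 2 was the highest for both, and these copies are hard to tell apart by their sequences. Alas2, the heme synthesis enzyme of erythroid cells, was at 10.2, 8.32 and 11.2 FPKM in the mesenchymal and 4.32, 8.24 and 4.86 FPKM in the non-mesenchymal libraries and was not called (difference 0.71, adjusted p = 0.124). Of 14 neural and Schwann genes tested, 3 were called higher and 7 lower (beside 13.3% and 11.9% of all protein-coding genes). Without mesenchymal library 1, 2 were called higher and 3 lower, and without mesenchymal library 3, 2 and 4. Elavl4, a neuronal RNA-binding protein, was at 26.8, 12.9 and 17.6 FPKM in the non-mesenchymal libraries and listed at 0 in all 3 mesenchymal libraries. Ngfr, the neurotrophin receptor p75, and Hand2, a factor of sympathetic neurons and of visceral mesenchyme, were higher in the mesenchymal fraction by 3 and 2.42. Of the 10 neural calls, 4 were made whichever library was left out, and the Schwann cell factor Sox10 was listed at 0 in all mesenchymal libraries and at 1.37, 1.48 and 2.7 FPKM in the others, below the filter.

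Cell cycle, protein folding and immediate early genes are used by most cell types. None of 25 cell cycle genes was called by limma at an adjusted p under 0.05, 2 passed at an unadjusted p under 0.05 (against 37.4% of all protein-coding genes), and the median was -0.195. Libraries did not overlap for 7 of the 25 (beside 43.9% of all protein-coding genes). In the mutants 5 of 25 were called lower (beside 18% of all protein-coding genes there), with a median of -0.485. Mki67, a marker of dividing cells, was at 50, 44.7 and 36.6 FPKM in the mesenchymal and 51.6, 58.9 and 58.8 FPKM in the non-mesenchymal libraries (difference -0.37, 95% interval -0.8 to 0.067, adjusted p = 0.203), and Top2a, a topoisomerase of dividing cells, was at 62.4, 63.1 and 64.5 against 64.2, 76.6 and 77.4 FPKM. With the libraries scaled by median ratios 1 of the 25 was called lower. Of 23 genes for protein folding in the endoplasmic reticulum, 7 were lower and 1 higher, beside 11.9% and 13.3% of all protein-coding genes. The 1 higher was Ddit3 (adjusted p = 0.0269). Its call was lost when any library but mesenchymal library 2 was left out, with adjusted p of 0.0583 to 0.0843. Pdia2, a disulfide isomerase of acinar cells, was at 1.35, 1.95 and 1.42 FPKM against 39.7, 62.9 and 85.7 FPKM, while the chaperone Hspa5, at 357, 458 and 475 against 347, 319 and 315 FPKM, was not called (adjusted p = 0.194). Immediate early genes, which rise within minutes when cells are handled, gave 1 of 14 called lower (beside 11.9% of all protein-coding genes). The 1 called was Egr2, at 124, 136 and 138 FPKM against 334, 456 and 494 FPKM. Without non-mesenchymal library 1, 5 immediate early genes were called lower, and with median-ratio scaling 3. In the mutants 6 of 14 were called lower and 1 higher (beside 18% and 14.4% of all protein-coding genes there). Fos was at 332, 357 and 321 against 230.2, 332 and 298 FPKM, overlapping between fractions.

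**Figure D4:**
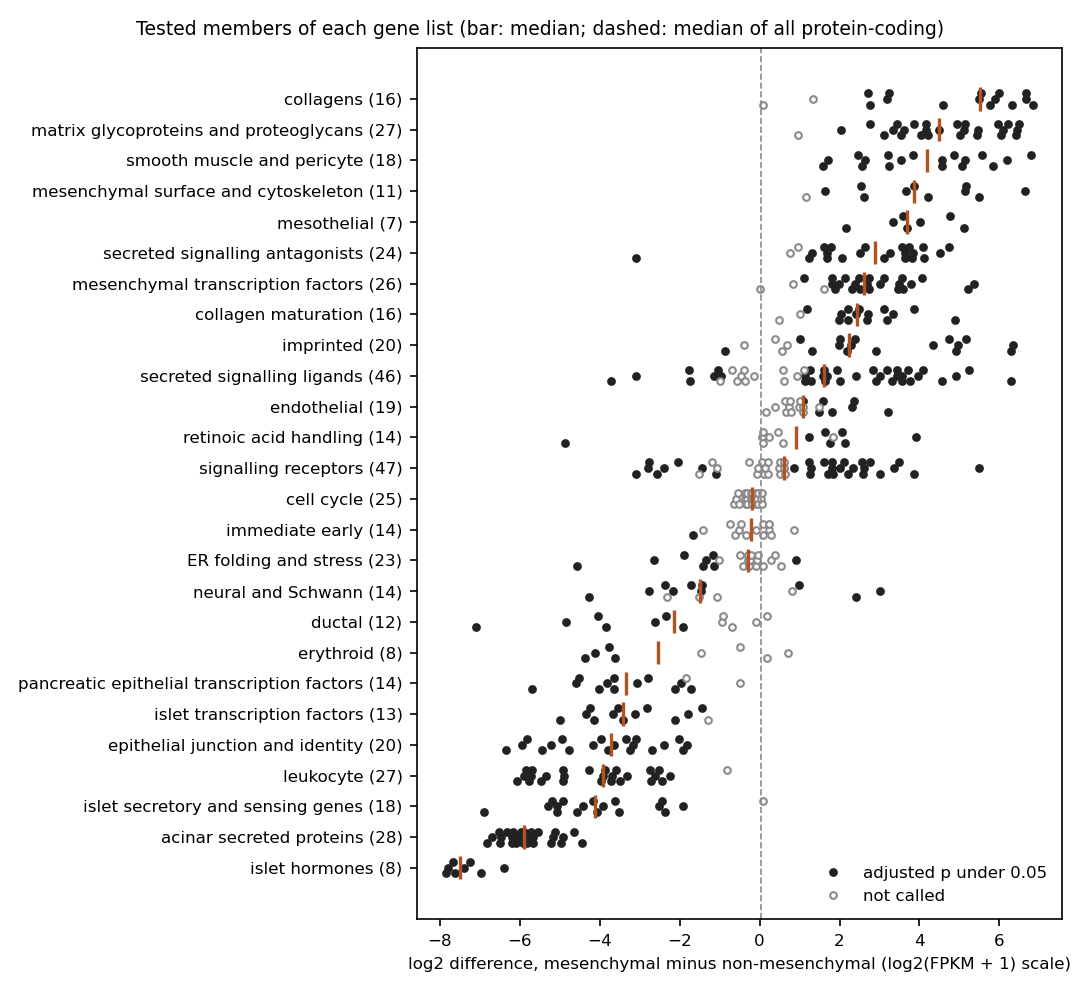
Difference between the fractions, on the log2(FPKM + 1) scale, for every tested member of the 26 gene lists, with filled points for adjusted p under 0.05, a bar at each list's median and a dashed line at the median of all protein-coding genes (0.04). Medians run from -7.51 for islet hormones to 5.51 for collagens, and cell cycle members lie between -0.64 and 0.06.

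The fraction contrast was then counted in the H19DMD mutants, which share no library with the controls. The labels were checked on the targeted locus: H19 was at 634.7, 766.5, 564.6 and 835.4 FPKM in the 4 mutant mesenchymal libraries, below all 3 controls, and Igf2 at 7923, 7467, 6608 and 6162 FPKM, above all 3. In the mutants 4286 of 13237 protein-coding genes (32.4%) were called, 1905 (14.4%) higher and 2381 (18%) lower. Of the 1761 genes called higher in controls, 1744 were tested in mutants and 1345 of these (77.1%) were called higher again, out of 1905 higher calls in mutants. Of the 1576 called lower, 1506 were tested and 1295 (86%) were called lower again, out of 2381 lower calls in mutants. The 1 gene called in opposite directions was Tmem14a, with a difference of 1.20 in controls (adjusted p = 0.0257) and -0.87 in mutants (adjusted p = 0.0474), named here after its values were seen. In the test of the difference between genotypes, limma called 0 of 13285 protein-coding genes at an adjusted p under 0.05, and 889 (6.69%) at an unadjusted p under 0.05. Over all features it called 2, or 0.0117%. H19 had a difference of 6.34 between fractions in controls and 4.79 in mutants.

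**Figure D5:**
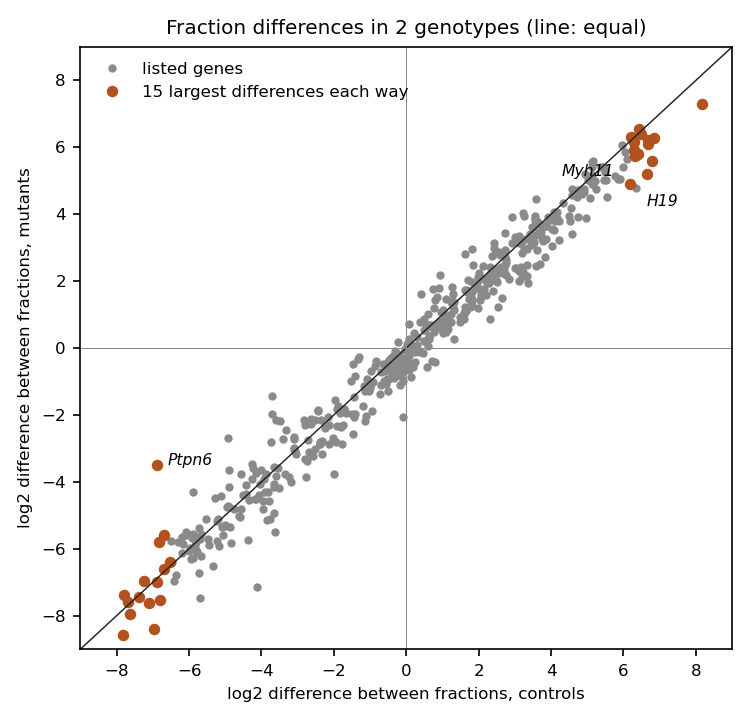
Difference between the fractions in controls (horizontal) and in H19DMD mutants (vertical), on the log2(FPKM + 1) scale, for the listed genes in grey and the 15 largest control differences of protein-coding genes in each direction in colour, with a line where both are equal. The largest of these control differences, that of Agtr2, lies at 8.16 and 7.29, and Ptpn6 is the coloured point furthest from the line, at -6.89 in controls and -3.51 in mutants.

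The 4 non-mesenchymal control libraries of the Igf2 model come from a separate table with its own scaling, so their values are set beside the others without a test. Col1a1 was at 12.3, 37.3, 29.2 and 36.6 FPKM there, against 13.3, 6.18 and 5.32 FPKM here. Cpa1 was at 544.0, 868, 817 and 525 FPKM there and Ins2 at 2483, 6217, 2137 and 3217 FPKM. Cd52 was at 76.1, 71.6, 68.6 and 86.7 FPKM, against 74.3, 104 and 76.5 FPKM here. The endothelial list summed to 37.5, 396.2, 182.9 and 185.3 FPKM there. Here it summed to 213.6, 208.6 and 228.3 FPKM in the mesenchymal and 40.15, 78.4 and 103.9 FPKM in the non-mesenchymal libraries. Non-mesenchymal library 2 of that model thus lay above all mesenchymal libraries here. The mesenchymal libraries of that model were not analysed here.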

How the data were processed

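RNA from sorted cells of the postnatal day 2 pancreas was amplified and sequenced. TopHat2 2.0.8, Cufflinks 2.2.1 and the build GRCm38 are named in the submitters' processing notes. The deposited values are FPKM, with 1 table for the H19DMD libraries analysed here. Strand use, the annotation release and read depth are not given in the sources used here, so no counting intervals were computed. Columns were assigned to samples by the library names that both carry, and 8 columns of other libraries, empty here, were not used. Gene classes came from a GENCODE annotation of GRCm38, in which 36425 of 38283 gene IDs were found.

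FPKM values were taken as log2(FPKM + 1), and features averaging 1 FPKM or more were tested with limma 3.58.1 (R 4.3.3, empirical Bayes with a trend, Benjamini-Hochberg adjustment over all features, threshold 0.05). This gave 16732 features in controls, of which 3785 (22.6%) were called. The mutant contrast and the difference of contrasts between genotypes were fitted the same way. The pipeline was tested on simulated data with known changes. Libraries with the same replicate number were not treated as pairs.

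The members, the 26 gene lists (556 genes) and the tests were chosen with earlier results of these data known. Named genes were the 15 protein-coding genes with the largest called differences each way without overlap and with a mean log2(FPKM + 1) of at least 5 in the higher fraction, the 10 most abundant protein-coding genes of each fraction, the 6 markers, Igf2, H19, Nkx3-2, and list members whose role is described. Predicted and clone-named models, mitochondrial genes, Xist and Y-linked genes were left out of the largest differences. Alternatives were pseudocounts of 0.1 and 5, other filters, median-ratio scaling, robust fitting, a replicate block, all 4 groups in 1 fit, a minimum log2 difference of 1 (treat) and leaving out each library.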

Additional observations from a re-analysis of the deposited data

Results flagged for a closer look

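In groups of 4 libraries, 24 sets of values were examined for a sample set apart from the others, and 2 were found, where chance flags about 1 in 20. Cd52 in the non-mesenchymal libraries of the mutants was at 133, 28.7, 40.4 and 30.7 FPKM, and the gap below the highest library was 0.888 of the range. Igf2 in the non-mesenchymal control libraries of the Igf2 model was at 78.3, 143.9, 80.2 and 71.5 FPKM, with a gap of 0.88 of the range.

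In the test of the fraction contrast between genotypes, limma called 2 of 17105 features (0.0117%). They are short RNAs: a U6 small nuclear RNA copy, whose fraction difference was higher in mutants by 8.46, and the microRNA gene Mir344g, whose difference was lower in mutants by a value of -10.6. Neither is protein-coding, and U6 has many near-identical copies in the genome.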

How the results depend on the processing

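The 3337 calls between fractions in controls became 3294 with a pseudocount of 0.1, 3238 with a pseudocount of 5, 3494 with median-ratio scaling and 3383 with robust fitting. A minimum log2 difference of 1 left 1301 calls, 685 higher and 616 lower, and a mean of at least 5 FPKM, with fewer genes tested, left 1338 higher and 894 lower calls in controls (59.9% higher, against 52.8%) and 1418 higher and 1449 lower in mutants. Leaving out 1 library gave 2436 to 2829 calls in controls, 1277 to 1454 higher and 1093 to 1434 lower, with fewer samples. The test of the difference between genotypes called 0 protein-coding genes, 2 with a pseudocount of 0.1 and 0 to 2 without 1 library. Over all features it called 2, with 6 at a pseudocount of 0.1, 6 with no filter on low values and 2 to 9 without 1 library. The cause of these changes was not tested. With the replicate number as a block, 2372 genes were called in controls. The correlation of deviations of control libraries was 0.018, 0.067 and 0.017 with the same number and -0.043 to 0.023 with different numbers. In the mutants it was 0.007 to 0.042 with the same number and -0.051 to 0.031 with different numbers. All same-number values were positive but under the threshold set of 0.1, so the numbers were not taken to pair libraries. Of 380 called listed or named genes, 281 kept their direction and side of the threshold in every alternative and 0 reversed. List medians moved with the pseudocount, for collagens to 6.18 and 4.14 and for mesenchymal transcription factors to 4.31 and 1.27 at pseudocounts of 0.1 and 5, and kept their sign. Uncalled differences near 0 changed sign. Median-ratio scaling gave -0.0356 for Col18a1, -0.107 for Meis2 and -0.033 for Cpe. Leaving out 1 library gave -0.121 to 0.218 for Col18a1, -0.239 to 0.282 for Meis2, -0.0314 to 0.236 for Cpe and -0.467 to 0.365 for Krt19. Without read counts, depth cannot be weighed, and low values of genes listed at 0 carry no known error.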

Other observations

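The mitochondrially encoded genes among the 10 most abundant of either fraction were not called. mt-Co1, a subunit of cytochrome c oxidase, was at 7179, 6443 and 3861 FPKM in the mesenchymal and 6860, 7322 and 7265 FPKM in the non-mesenchymal libraries (difference -0.34, adjusted p = 0.485), and mt-Atp6 of ATP synthase was at 5823, 4018 and 1902 against 4631, 6381 and 6216 FPKM (adjusted p = 0.353). Mesenchymal library 3 was the lowest of all 6 for both.

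Meg3, a non-coding RNA of the Dlk1 domain, was at 555, 389.7 and 524 FPKM in the mesenchymal against 97.4, 84.5 and 139 FPKM in the non-mesenchymal libraries, and Zim1, a zinc finger gene of the Peg3 domain, at 172, 205 and 142 FPKM against 7.02, 7.74 and 7.92 FPKM. Pdgfrb, the platelet-derived growth factor receptor of pericytes, was at 18.2, 18 and 21.7 FPKM against 0.27, 0.56 and 0.325 FPKM, 50.1-fold apart, while the ligand Pdgfa was at 28.2, 21.1 and 22.9 against 27.3, 27.6 and 49.1 FPKM and was not called (adjusted p = 0.305). Cxcr4, a chemokine receptor of leukocytes, was lower in the mesenchymal fraction, at 0.484, 3.56 and 3.04 FPKM against 12.8, 26.5 and 23.2 FPKM. Its ligand Cxcl12 was at 59.6, 81.5 and 51.6 FPKM against 12.6, 21.1 and 28.1 FPKM (adjusted p = 0.0177), a call lost without mesenchymal library 1 (adjusted p = 0.0523), mesenchymal library 2 (0.0582) or non-mesenchymal library 2 (0.0548).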
